A study of Ovis aries with 9 samples.

Results

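The genes described here encode the enzymes, kinases and transporters that carry glucose carbon through glycolysis, the pyruvate step and the pentose phosphate pathway. The set was a list of 41 gene symbols, and a gene was taken where the gene expression table held a row of exactly that name. Of the 41 symbols, 31 had such a row, 1 row each, among 39157 genes in the table. The other 10 (ALDOA, PGAM1, LDHA, LDHB, PDHA1, PDHB, DLAT, SLC16A1, PGLS and RPE) were not analysed here. All 31 genes passed the filter on low values, which asked for 0.1 FPKM in 3 libraries and left 24365 genes for testing. FPKM is the number of fragments per kilobase of transcript, relative to the size of the library, and it was scaled here so that the libraries share 1 median.

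RNA-seq was done on cultured granulosa cells (GCs), which line the ovarian follicle and feed the oocyte, taken from the ovaries of thin-tailed Han ewes. Cells from many ovaries were pooled, grown in medium with serum, kept for 8 h without glucose and serum, and then cultured for 24 h with glucose at 0 mM (CON), 8.4 mM (LOW) or 33.6 mM (HIGH). Each group had 3 libraries. CON therefore had no added glucose through the starvation and the 24 h that followed, and all 3 groups passed through the same starvation. The methods describe 1 pool of cells, with no separate animals per replicate, so the p-values measure the spread between these cultures and not between ewes.

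Glycolysis splits glucose into pyruvate in the cytosol. Hexokinase and phosphofructokinase control entry, and the bifunctional PFKFB enzymes set the level of fructose 2,6-bisphosphate, the strongest allosteric activator of phosphofructokinase. Pyruvate is either reduced to lactate and exported through monocarboxylate transporters, or oxidised by pyruvate dehydrogenase, which the PDK kinases switch off. The pentose phosphate pathway branches off after hexokinase and yields NADPH and ribose 5-phosphate. In the follicle, GCs take up glucose and pass pyruvate and lactate to the oocyte, which uses glucose poorly itself.

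An FPKM of 1 stood for 47.99 to 71.3 fragments per kilobase across the 9 libraries, and only ENO2 and FBP1 lay under that level on average. Of the granulosa markers, CYP11A1 lay between 141 and 202.5 FPKM, whereas FSHR lay between 0.228 and 0.577 and the defining markers CYP19A1, FOXL2 and AMH were not analysed here. The 9 granulosa markers in the table (of 12 listed) summed to between 207 and 255 FPKM in CON and between 200.3 and 214 in LOW, and HIGH lay below both at 183 to 190. Most of this sum was CYP11A1, and the other granulosa markers were mixed. INHA was likewise lower in HIGH than in every CON and LOW library. It had 11.09, 13.38 and 20.17 FPKM in CON, 11.98, 14.62 and 14.57 in LOW and 8.525, 10.91 and 10.19 in HIGH. NR5A1 averaged 11.85 in CON, 9.988 in LOW and 9.503 in HIGH, with overlap. GATA4 did not follow CYP11A1. It had 7.09, 5.13 and 3.81 FPKM in CON, 4.01, 4.70 and 4.26 in LOW and 9.74, 7.16 and 5.13 in HIGH. Its HIGH libraries all lay above LOW and overlapped CON. FSHR, AMHR2, INHBA, FST and HSD17B1 overlapped between HIGH and both other groups. The 8 stromal and smooth muscle markers reached 4588 to 6777, 5385 to 5847 and 4307 to 5929 FPKM in sum, so that transcripts such as LUM and TAGLN were far more abundant than any granulosa marker. Within that sum COL1A1, a fibrillar collagen, had 31.5, 28.1 and 16.1 FPKM in CON, 27.7, 23.5 and 24.4 in LOW and 126, 72.7 and 38.8 in HIGH, a log2 fold change of 1.54 in HIGH versus CON (SE 0.39, unadjusted limma p 0.00304). COL3A1 was higher in HIGH than in both other groups with no overlap. MYH11 was 1.79-fold higher in HIGH than in CON, with overlap. Both ranked the HIGH libraries as COL1A1, PFKL, HK2 and PGD did, with HIGH 1 highest and HIGH 3 lowest. The other markers of that list, ACTA2, TAGLN, DES, DCN and LUM, ranked the HIGH libraries in the opposite order. They overlapped between HIGH and CON, with folds of HIGH over CON from 0.711 (TAGLN) to 1.005 (LUM). Of the 4 endothelial markers all averaged under 0.1 FPKM. The 4 immune markers summed to between 9.76 and 13.6 FPKM in CON, between 9.96 and 11.9 in LOW and between 8.41 and 9.66 in HIGH, nearly all of it CD68, while ALAS2, the red cell marker in the table, was listed at 0 in every library. The 2 theca markers summed to 0.139 to 0.421 over the 9 libraries. The part of these other cell types in the values below was not tested, and in bulk RNA fewer cells of a type and less RNA per cell cannot be told apart. As a check of the glucose labels, TXNIP, which glucose is known to induce, stood at 68.5, 88.7 and 105 FPKM in CON, 213, 226 and 233 in LOW and 179, 205 and 217 in HIGH. The pooled log2 fold change of TXNIP (mean of LOW and HIGH over CON) was 1.29 with a limma BH-adjusted p of 0.0336, and ARRDC4, known for the same response, gave 1.27 with 0.0477.

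Levels of the enzyme genes covered more than 3 orders of magnitude (plot of levels by library). The 5 genes with a mean of 100 FPKM or more were GPI, GAPDH, PGK1, ENO1 and PKM, of which the last 4 act in the lower, ATP-yielding part of glycolysis. A further 11 lay between 10 and 100, 13 between 1 and 10, and ENO2 and FBP1 lay under 1. Of the genes that control flow into the pathway, HK2, the 3 phosphofructokinases and the 3 PFKFB genes were in the class from 1 to 10 FPKM, and HK1 averaged 11.6. FPKM is per length, which allows a rough comparison of levels between genes. Some rows, such as that of PFKP, also hold antisense or overlapping transcripts, and the comparability between genes was not tested.

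**Figure D1:**
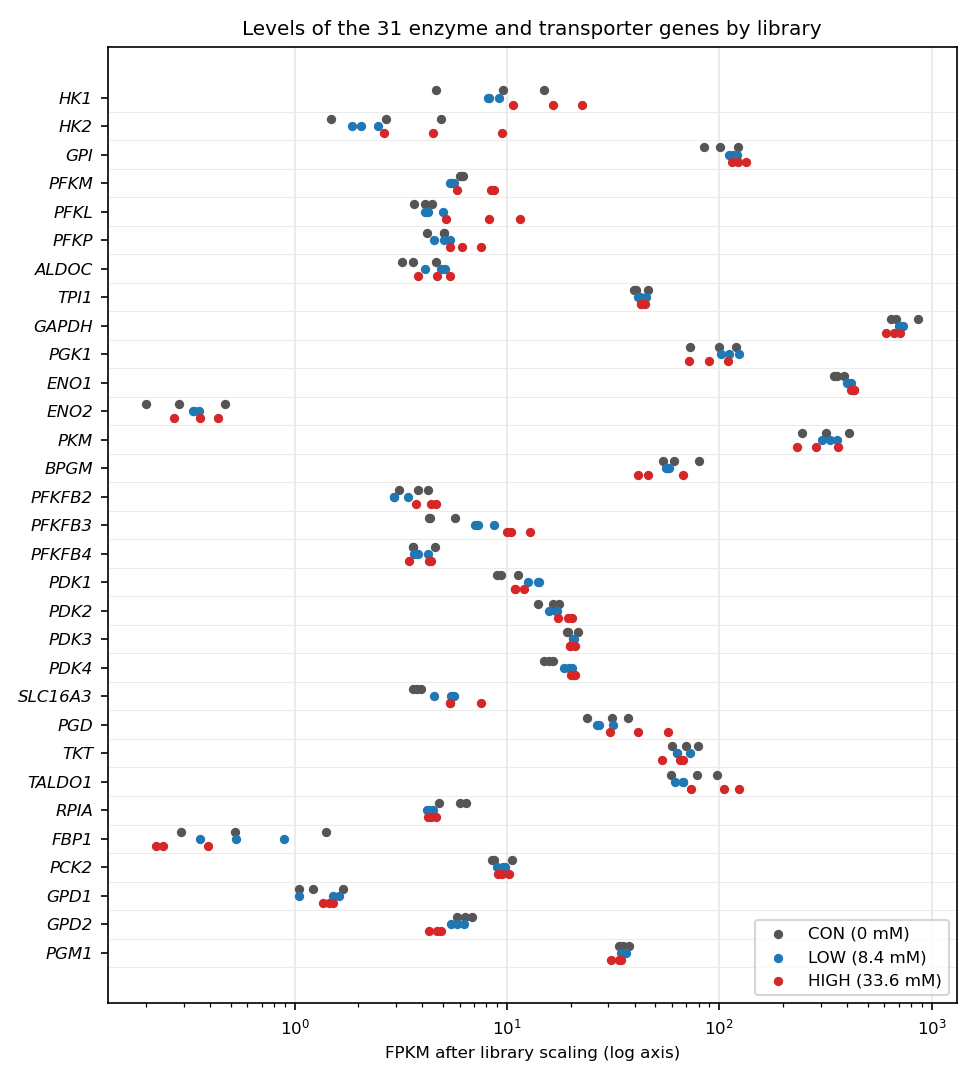
FPKM after library scaling (log axis) of the 31 genes in the 9 libraries, 3 points per group and gene, in the order of the pathway. GAPDH was the most abundant gene at 609 to 867 FPKM, FBP1 and ENO2 were the least, and the PFKFB3 points of CON, LOW and HIGH do not overlap.

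None of the 31 genes passed the threshold (limma, BH-adjusted p under 0.05 and absolute log2 fold change above 1) in any comparison. Over all genes tested, 2 of 24365 passed in LOW versus CON (0.00821%), 2 in HIGH versus CON (0.00821%), 2 in HIGH versus LOW (0.00821%) and 6 in the pooled comparison of glucose with CON (0.0246%). The adjusted p-values of the 31 genes were 1 throughout in LOW versus CON, 0.159 to 0.955 in HIGH versus CON, 0.60 to 0.977 in HIGH versus LOW and 0.298 to 0.985 in the pooled comparison. With edgeR on the estimated counts none of the 31 passed either, and with DESeq2 on the same counts 1 passed, PFKFB3 in HIGH versus CON. These counts are FPKM times genomic span times 1 factor per library, not read counts. The p-values of both tools, here and below, therefore serve only as alternatives.

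At an unadjusted limma p under 0.05, 5 of the 31 genes stood out in LOW versus CON (16.1%, against 1.83% of all genes tested), 4 of them higher in LOW (0.928% of all genes) and RPIA lower (0.903%). The higher ones were PFKFB3, PDK1, PDK4 and SLC16A3. In HIGH versus CON there were 7 (22.6%, against 6.77%), with PFKL, PFKP, PFKFB3, PDK4 and SLC16A3 higher (4.1% of all genes) and RPIA and GPD2 lower (2.67%). In HIGH versus LOW there were 9 (29%, against 7.67%), with HK1, HK2, PFKM, PFKL, PFKFB2, PFKFB3, PGD and TALDO1 higher (5.21% of all genes) and GPD2 lower (2.46%). In the pooled comparison there were 7 (22.6%, against 2.65%), with PFKL, PFKFB3, PDK1, PDK4 and SLC16A3 higher (1.44% of all genes) and RPIA and GPD2 lower (1.21%). Of 9225 genes with a symbol and a mean of 1 FPKM or more, the corresponding shares were 1.09%, 7.83%, 8.68% and 2.14%. With edgeR 5, 7, 8 and 8 of the 31 genes stood out at this level, against 1.83%, 5.51%, 6.74% and 2.39% of all genes in the same fit. With DESeq2 the numbers were 6, 10, 9 and 8, against 4.11%, 11.4%, 12.8% and 5.6%. The comparisons share libraries, so a gene that appears in several of them is not counted independently.

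The groups did not overlap for 7 of the 31 genes in LOW versus CON (6.07% of all genes), 8 in HIGH versus CON (9.4%), 11 in HIGH versus LOW (18.9%) and 5 in glucose versus CON (1.42%). The last 5 were ENO1, PFKFB3, PDK4 and SLC16A3, higher in all 6 libraries with glucose, and RPIA, lower in all 6. The median log2 fold change of the 31 genes was 0.03 in LOW versus CON, 0.20 in HIGH versus CON, 0.05 in HIGH versus LOW and 0.07 for glucose, beside medians over all genes of 0.01, 0.07, 0.06 and 0.04. Mean levels were ordered CON, LOW, HIGH upwards for 12 genes and downwards for 6, while LOW had the lowest mean for 8 and the highest for 5.

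**Figure D2:**
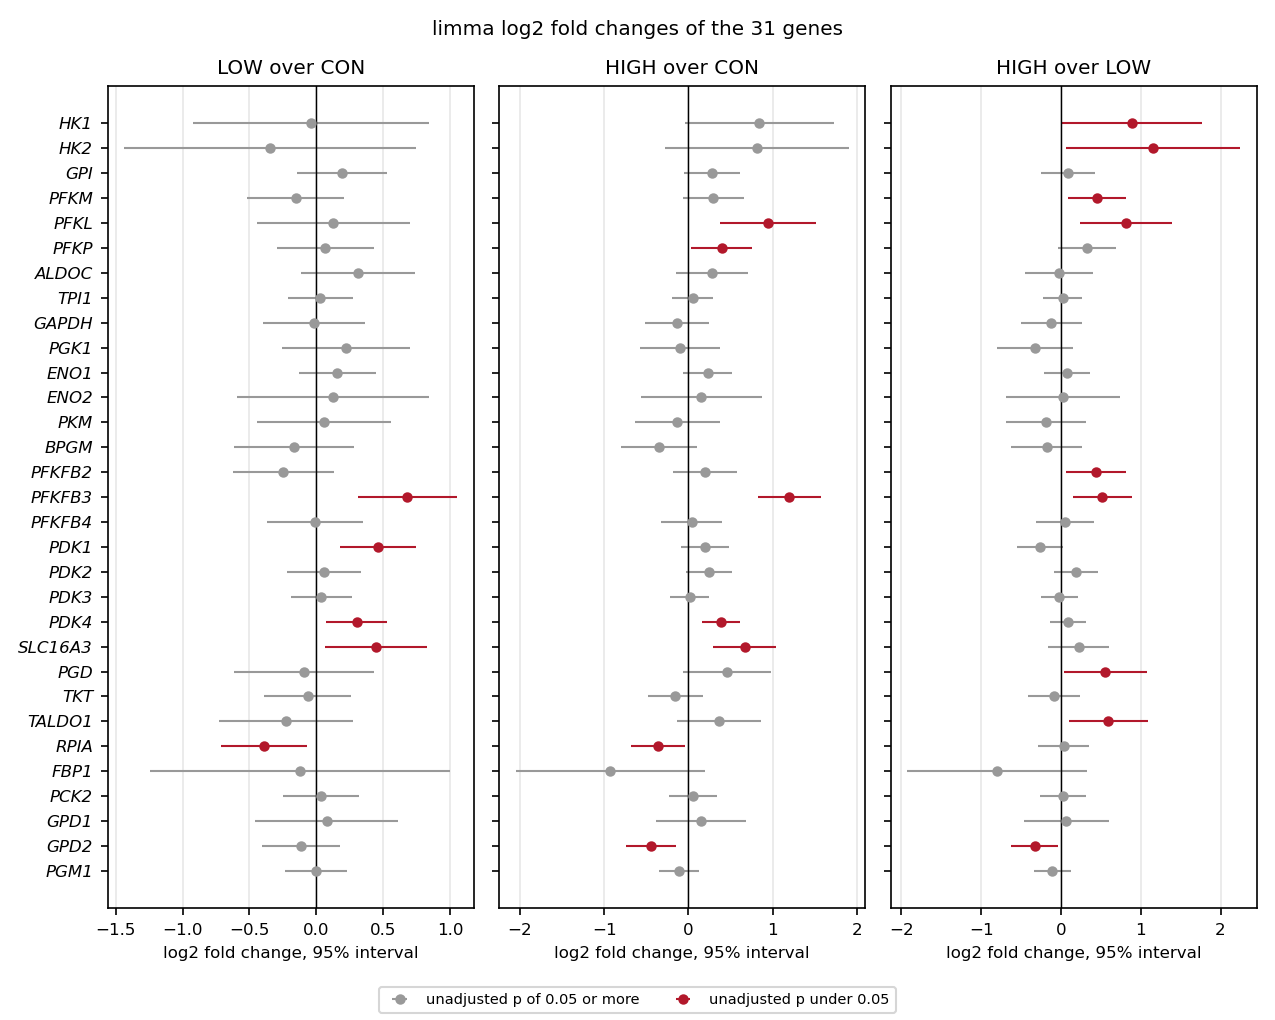
Log2 fold changes from limma, taken on log2(FPKM + 0.1), of the 31 genes in 3 comparisons, with 95% intervals and in red the genes at an unadjusted p under 0.05. The largest, that of PFKFB3 in HIGH over CON, was 1.20 with an interval from 0.83 to 1.57, and the intervals of HK1, HK2 and FBP1 are the widest.

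Entry into glycolysis begins with hexokinase, which traps glucose in the cell as glucose 6-phosphate. HK1 (chr25:25444638-25560202, genome build not given in the sources used here, as for all positions below) stood at 15.0, 9.63 and 4.62 FPKM in CON, 9.19, 8.13 and 8.26 in LOW and 22.5, 16.4 and 10.7 in HIGH. The 3 CON libraries enclosed the LOW values, and HIGH lay above LOW but overlapped CON. In HIGH versus LOW HK1 had a log2 fold change of 0.88 (SE 0.39, unadjusted limma p 0.0499). HK2 (chr3:96625648-96669143), the isozyme of insulin-sensitive and growing tissues, had 4.88, 2.71 and 1.49 FPKM in CON, 2.47, 1.87 and 2.05 in LOW and 9.46, 4.48 and 2.64 in HIGH. HIGH again lay above LOW and overlapped CON, with 1.16 for HIGH versus LOW (SE 0.49, unadjusted limma p 0.0401). Without HIGH replicate 1 these values were 0.63 for HK1 (unadjusted limma p 0.172) and 0.68 for HK2 (0.162).

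Both hexokinases varied far more within groups than most genes. Their SD within groups was 0.58 for HK1 and 0.72 for HK2 on the log2 scale, at percentiles 96.1 and 98.5 among the 9225 genes named above. The same libraries were at the extremes for both: CON 1 lay 0.77 and 0.83 above its group mean and CON 3 lay 0.91 and 0.83 below it on the log2 scale, and HIGH 1 and HIGH 3 differed in the same sense. HK2 made up 18.7 to 29.6% of the hexokinase FPKM in every library, and this share did not pass the test across groups (exact permutation p 0.336).

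GPI (chr14:44074243-44101225) converts glucose 6-phosphate to fructose 6-phosphate and also acts outside cells as a cytokine. Its FPKM were 122, 100.7 and 85.0 in CON, 116, 121 and 111 in LOW and 122, 134 and 115 in HIGH. The groups overlapped, and the log2 fold change in HIGH versus CON was 0.28 (SE 0.15, unadjusted limma p 0.0912).

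Phosphofructokinase, the committing step of glycolysis, is built from PFKM, PFKL and PFKP subunits, named for muscle, liver and platelets. PFKM (chr3:138238132-138280543) stood at 6.22, 6.11 and 6.05 FPKM in CON, 5.67, 5.38 and 5.46 in LOW and 8.65, 8.46 and 5.84 in HIGH. LOW lay below CON and below HIGH in every library. For PFKM the log2 fold change was 0.45 in HIGH versus LOW (SE 0.16, unadjusted limma p 0.0209) and -0.15 in LOW versus CON (0.368).

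PFKL (chr1:262409923-262432838) had 4.45, 4.12 and 3.65 FPKM in CON, 5.00, 4.25 and 4.12 in LOW and 11.5, 8.23 and 5.19 in HIGH. Each HIGH library exceeded all 6 others, while LOW overlapped CON. It had a log2 fold change of 0.94 in HIGH versus CON (SE 0.25, unadjusted limma p 0.00456) and 0.82 in HIGH versus LOW (0.0102). Both kept an unadjusted p under 0.05 in each of the 18 other settings, among them the fit without HIGH replicate 1, where they were 0.67 and 0.54. The BH-adjusted p of PFKL in HIGH versus CON was 0.651 with limma and 0.015 to 1 over the other settings, the lowest with DESeq2, where the log2 fold change of 0.96 stayed under 1.

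PFKP (chr13:44269126-44324475) had 4.20, 5.03 and 5.07 FPKM in CON, 5.07, 5.40 and 4.52 in LOW and 7.53, 6.11 and 5.38 in HIGH. HIGH lay above CON and overlapped LOW, with a log2 fold change of 0.40 over CON (SE 0.16, unadjusted limma p 0.0367) that was 0.27 without HIGH replicate 1 (0.141). The PFKP row also contained the transcripts PFKP-AS1, PFKP-OT1 and PFKP-OT2, and the coding transcript made up 57.9% of it. Taken alone, the coding transcript overlapped between HIGH and CON, with 2.675 FPKM in HIGH 3 and 2.953 in CON 2. Its log2 fold change in HIGH versus CON was 0.501 in the transcript fit (SE 0.254, unadjusted limma p 0.0812). The separation of HIGH from CON therefore holds for the whole row and not for the coding transcript. PFKP held 26.8 to 35.9% of the summed FPKM of the 3 subunit genes, and on the Ensembl transcripts alone, without the antisense and overlapping ones, its mean share was 20.9% in CON, 21.3% in LOW and 19.7% in HIGH, with PFKM at 47.5, 43.5 and 39.3%.

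Aldolase is represented by ALDOC alone, since ALDOA was not analysed here. Its FPKM were 3.20, 3.61 and 4.62 in CON, 4.90, 5.12 and 4.12 in LOW and 3.83, 4.71 and 5.43 in HIGH, and the groups overlapped. FBP1 (chr2:31653188-31684127), which runs the phosphofructokinase step backwards in gluconeogenesis, was low, with a mean under 1 FPKM. It had 0.290, 0.524 and 1.41 FPKM in CON, 0.357, 0.528 and 0.892 in LOW and 0.390, 0.222 and 0.241 in HIGH. Between HIGH and CON the log2 fold change of FBP1 was -0.92 (SE 0.50, unadjusted limma p 0.096). It was -0.39 without CON replicate 3 (0.367) and -1.36 without CON replicate 1 (0.0181), so single CON libraries set its size.

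Of the 31 genes, PFKFB3 had the largest log2 fold change over CON in both glucose groups. The gene (ENSOARG00000013082, chr13:10675423-10691395) encodes the isozyme with the highest ratio of kinase to phosphatase activity, which favours glycolysis. Its FPKM were 4.30, 4.36 and 5.68 in CON, 8.72, 7.30 and 7.07 in LOW and 12.9, 10.4 and 9.97 in HIGH. Means and SD (n = 3) were 4.78 ± 0.783, 7.70 ± 0.894 and 11.1 ± 1.57, and no group overlapped another. On the log2 scale PFKFB3 was 0.68 higher in LOW than in CON (SE 0.17, 95% interval 0.31 to 1.05, unadjusted limma p 0.00238). In HIGH versus CON the difference was 1.20 (interval 0.83 to 1.57), a 2.30-fold difference of fitted means, with an unadjusted limma p of 3.87e-05 and a BH-adjusted p of 0.159.

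HIGH also exceeded LOW, by 0.52 (SE 0.17, interval 0.15 to 0.89, unadjusted limma p 0.0114). Over the other settings the log2 fold change of PFKFB3 was 0.58 to 0.81 in LOW versus CON, 1.07 to 1.33 in HIGH versus CON and 0.40 to 0.61 in HIGH versus LOW, and the unadjusted p stayed under 0.05 in all 18 for each. The BH-adjusted p in HIGH versus CON was 7.58e-08 with DESeq2 and 0.0463 with limma without CON replicate 3, and between 0.114 and 0.824 in the other settings. PFKFB3 has a single transcript in the table, whose log2 fold changes were 0.69, 1.21 and 0.53.

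PFKFB2 (chr12:4136656-4169265), the isozyme best known from heart, had 4.25, 3.82 and 3.09 FPKM in CON, 3.42, 2.95 and 2.94 in LOW and 4.66, 4.40 and 3.72 in HIGH. HIGH lay above LOW and overlapped CON, with a log2 fold change of 0.44 over LOW (SE 0.17, unadjusted limma p 0.0262). PFKFB4 ranged from 3.48 to 4.58 FPKM over the 9 libraries, and its log2 fold changes were -0.01 in LOW versus CON and 0.04 in HIGH versus CON (95% interval -0.32 to 0.40).

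**Figure D3:**
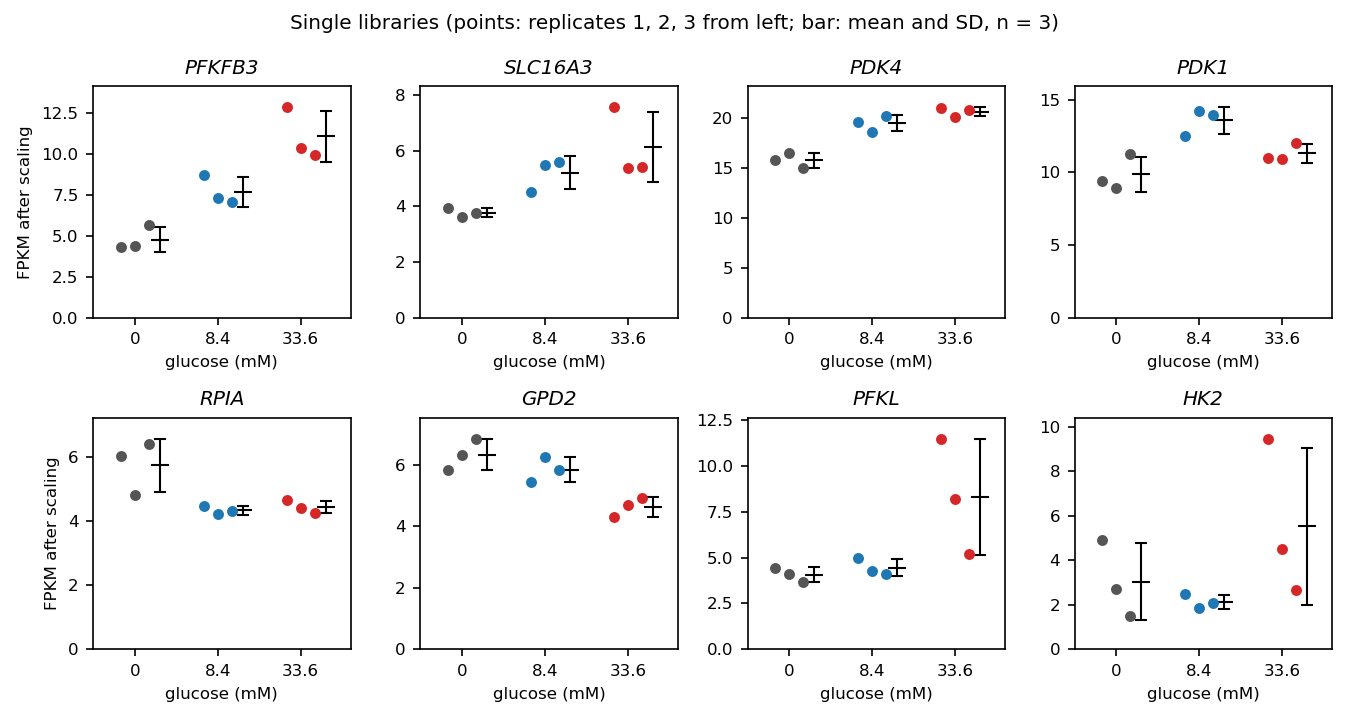
FPKM after scaling, from 0, of 8 genes against glucose in mM, with 1 point per library and bars for the mean and SD of 3 libraries. PFKFB3 separates all 3 groups, SLC16A3 and PDK4 separate CON from both glucose groups, RPIA lies lower with glucose, and the HIGH libraries of PFKL and HK2 are widely spread.

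In the middle of the pathway, TPI1 (chr3:207527997-207529618), which interconverts the triose phosphates, had 40.5, 39.5 and 46.4 FPKM in CON, 45.3, 41.2 and 42.3 in LOW and 43.0, 42.9 and 44.8 in HIGH. The groups overlapped throughout, and the 95% interval of the log2 difference was -0.21 to 0.27 for LOW versus CON and -0.19 to 0.29 for HIGH versus CON. GAPDH (chr3:207818504-207822814), the oxidising step and a common reference gene, had 648, 682 and 867 FPKM in CON, 701, 718 and 733 in LOW and 609, 668 and 708 in HIGH. Its interval was -0.40 to 0.36 for LOW versus CON and -0.52 to 0.25 for HIGH versus CON.

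PGK1 (chrX:65709703-65731937), the first ATP-yielding step, had 72.8, 100.2 and 121 FPKM in CON, 102, 124 and 111 in LOW and 72.2, 89.6 and 110.3 in HIGH. The lowest libraries were CON 1 and HIGH 1, and the log2 fold change in HIGH versus LOW was -0.32 (SE 0.21, unadjusted limma p 0.162). PKM (chr7:18780797-18808500), pyruvate kinase, followed the same library order with 245, 317 and 410.0 FPKM in CON, 303, 357 and 331 in LOW and 234, 286 and 363 in HIGH. In both genes CON 1 and HIGH 1 were the lowest and CON 3 and HIGH 3 the highest of their groups, the opposite of HK1 and HK2.

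ENO1 (chr12:42682907-42696905), the enolase of most tissues, stood at 388, 349 and 359 FPKM in CON, 404, 418 and 399 in LOW and 433, 431 and 418 in HIGH. All LOW libraries lay above all CON libraries and all HIGH libraries above LOW, the last by a margin of under 1 FPKM. These steps were small, with a log2 fold change of 0.16 in LOW versus CON (SE 0.13, unadjusted limma p 0.25) and 0.23 in HIGH versus CON (0.108). Its SD within groups was 0.05 on the log2 scale, at percentile 0.824 of genes. ENO2, the neuronal enolase, ranged from 0.200 to 0.471 FPKM and gave 0.0515 to 0.131% of the enolase FPKM. BPGM, which makes 2,3-bisphosphoglycerate, ranged from 41.3 to 80.0 FPKM, with a log2 fold change of -0.35 in HIGH versus CON (SE 0.20, unadjusted limma p 0.117).

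At the pyruvate step, the PDK genes encode the kinases that inactivate pyruvate dehydrogenase. PDK4 (chr4:12768760-12781448), the isozyme best known for rising in fasting, had 15.8, 16.5 and 15.0 FPKM in CON, 19.6, 18.6 and 20.2 in LOW and 21.0, 20.1 and 20.8 in HIGH. Every library with glucose lay above every CON library, while LOW and HIGH overlapped. On the log2 scale the difference of PDK4 was 0.30 in LOW versus CON (SE 0.10, unadjusted limma p 0.0145), 0.39 in HIGH versus CON (0.00375) and 0.35 for glucose versus CON (0.00315, BH-adjusted 0.938). With FPKM as deposited the value in LOW versus CON was 0.20 (unadjusted limma p 0.107). The BH-adjusted p for glucose versus CON was 1.2e-06 with DESeq2, where the log2 fold change was 0.31, and 0.32 to 1 in the other settings.

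PDK1 (chr2:136169785-136213559), a known target of hypoxia-inducible factor, had 9.42, 8.94 and 11.2 FPKM in CON, 12.5, 14.2 and 14.0 in LOW and 11.0, 10.9 and 12.1 in HIGH. LOW lay above both other groups, and CON and HIGH overlapped. Its log2 fold change was 0.46 in LOW versus CON (SE 0.13, 95% interval 0.18 to 0.75, unadjusted limma p 0.0052) and 0.20 in HIGH versus CON (interval -0.09 to 0.49). In HIGH versus LOW it was -0.26 (unadjusted limma p 0.0695). PDK2 ranged from 14.1 to 20.2 FPKM and PDK3 from 19.2 to 21.5, with log2 fold changes in HIGH versus CON of 0.25 (interval -0.03 to 0.52) and 0.02 (interval -0.21 to 0.24).

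SLC16A3 (ENSOARG00000016912, chr11:49799205-49803627) encodes MCT4, the monocarboxylate transporter specialised in lactate export. Its FPKM were 3.94, 3.60 and 3.77 in CON, 4.52, 5.47 and 5.61 in LOW and 7.57, 5.38 and 5.42 in HIGH. All 6 glucose libraries exceeded the 3 CON libraries, and LOW and HIGH overlapped. SLC16A3 gave a log2 fold change of 0.45 in LOW versus CON (SE 0.17, unadjusted limma p 0.0254), 0.67 in HIGH versus CON (0.00305) and 0.56 for glucose versus CON (0.00381, BH-adjusted 0.938). The value in HIGH versus CON was 0.51 without HIGH replicate 1 (unadjusted limma p 0.011). DESeq2 gave it a BH-adjusted p of 0.0268, and the adjusted p lay between 0.173 and 1 in the remaining settings.

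In the pentose phosphate pathway, PGD (chr12:41299271-41313662), which yields the second NADPH, had 37.1, 31.2 and 24.0 FPKM in CON, 31.7, 27.3 and 26.4 in LOW and 57.2, 41.4 and 30.8 in HIGH. HIGH overlapped both other groups, with a log2 fold change of 0.56 over LOW (SE 0.23, unadjusted limma p 0.0393) and of 0.33 without HIGH replicate 1 (0.155). RPIA (chr3:59227317-59261897), which makes ribose 5-phosphate, had 6.04, 4.81 and 6.40 FPKM in CON, 4.48, 4.21 and 4.32 in LOW and 4.65, 4.41 and 4.26 in HIGH. Every glucose library lay below every CON library, and LOW and HIGH overlapped. The log2 fold change of RPIA was -0.39 in LOW versus CON (SE 0.14, unadjusted limma p 0.0225), -0.36 in HIGH versus CON (0.0328) and -0.37 for glucose versus CON (0.0139, BH-adjusted 0.938).

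TALDO1 (chr21:49360110-49366715), transaldolase of the non-oxidative branch, had 59.3, 78.3 and 97.4 FPKM in CON, 61.8, 67.4 and 67.8 in LOW and 106, 124 and 74.0 in HIGH. The log2 fold change in HIGH versus LOW was 0.59 on FPKM (SE 0.22, unadjusted limma p 0.0245), but on the estimated counts it was -0.18 with DESeq2 and -0.19 with edgeR. In the 2 high libraries, HIGH 1 and HIGH 2, the gene was assigned to its Ensembl transcript (107 and 124.5 FPKM) and not to TCONS_00162293, a transcript assembled by the authors (0.687 in each). In LOW and in HIGH 3 the Ensembl transcript was listed at 0 and TCONS_00162293 held 62.1 to 73.2 FPKM. CON 3, with a gene level near that of HIGH 1, also had the Ensembl transcript at 0 and TCONS_00162293 at 93.8. The part of this assignment in the difference was not tested. TKT, transketolase, ranged from 54.1 to 79.4 FPKM with a log2 fold change of -0.16 in HIGH versus CON (95% interval -0.48 to 0.17).

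Of the branch genes, GPD2 (chr2:151898521-152043557), the mitochondrial glycerol 3-phosphate dehydrogenase of the glycerol phosphate shuttle, had 5.83, 6.33 and 6.86 FPKM in CON, 5.44, 6.26 and 5.83 in LOW and 4.30, 4.69 and 4.92 in HIGH. The 3 HIGH libraries lay below the 6 others. The log2 fold change of GPD2 was -0.44 in HIGH versus CON (SE 0.13, unadjusted limma p 0.00737) and -0.33 in HIGH versus LOW (0.0319). The first kept an unadjusted p under 0.05 in all 18 other settings and the second in 12 of 18. Its cytosolic partner GPD1 ranged from 1.05 to 1.70 FPKM, 15.6% of it from the antisense transcript GPD1-AS1. PGM1, which links glucose 6-phosphate to glycogen, ranged from 30.9 to 37.6 FPKM, and PCK2, the mitochondrial phosphoenolpyruvate carboxykinase, from 8.49 to 10.6. Their log2 fold changes in HIGH versus CON were -0.11 for PGM1 (95% interval -0.34 to 0.12) and 0.06 for PCK2 (interval -0.23 to 0.34).

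Shares within isozyme families were compared next, because a share within 1 library does not depend on how libraries are scaled. For 6 families with all their listed genes in the table, 13 shares of the family FPKM were compared across the groups by exact permutation of the 9 libraries, which allows 280 groupings and no p below 0.00357. Of these, 7 had an unadjusted p under 0.05 and 6 a p under 0.05 after BH adjustment over the 13 shares. Shares of 1 family sum to 100%, so they are not independent of each other. With 1 library left out, 4 to 6 shares kept an unadjusted p under 0.05, the lowest number without CON replicate 3, LOW replicate 3, HIGH replicate 1 or HIGH replicate 2, and at most 4 passed the adjustment.

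PFKFB3 made up 35.3, 36.9 and 42.5% of the summed FPKM of PFKFB2, PFKFB3 and PFKFB4 in CON, 55.3, 50.4 and 51.1% in LOW and 61.3, 54.2 and 55.4% in HIGH (exact permutation p 0.00714, BH-adjusted 0.0371). It was the most abundant isozyme of the family in all 9 libraries, and the shares of the 6 glucose libraries all lay above those of the 3 CON libraries. The share of PFKFB4 averaged 31.6% in CON, 26.7% in LOW and 21.1% in HIGH (exact permutation p 0.0107, adjusted 0.0371), and that of PFKFB2 30.1, 21.1 and 21.9% (0.0143, adjusted 0.0371 in the same exact test).

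Among the phosphofructokinase genes, PFKL made up 29.9, 27.0 and 24.7% in CON, 31.8, 28.3 and 29.2% in LOW and 41.6, 36.1 and 31.6% in HIGH (exact permutation p 0.0214, adjusted 0.0464). PFKM went the other way, with group means of 40.9, 36.8 and 34.6% (exact permutation p 0.0143, adjusted 0.0371). With the antisense and overlapping transcripts left out, a choice made after seeing the data, the share of PFKL averaged 31.6% in CON, 35.2% in LOW and 41.1% in HIGH (exact permutation p 0.00714, adjusted 0.0279). PFKP had no share difference past the threshold (exact permutation p 0.264).

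Of the kinases of pyruvate dehydrogenase, PDK3 made up 32.4% ± 1.07 of the family in CON, 29.2% ± 0.751 in LOW and 28.4% ± 0.863 in HIGH (SD), with an exact permutation p of 0.0107 and an adjusted p of 0.0371. Its mean FPKM was 20.03 in CON, 20.52 in LOW and 20.24 in HIGH. The share of PDK4 averaged 25.6, 27.7 and 29.0% in the same order (exact permutation p 0.0429, adjusted 0.0796). PDK1 averaged 16.0, 19.3 and 15.9% and PDK2 26.0, 23.7 and 26.7%, and neither passed (exact permutation p 0.107 and 0.189).

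**Figure D4:**
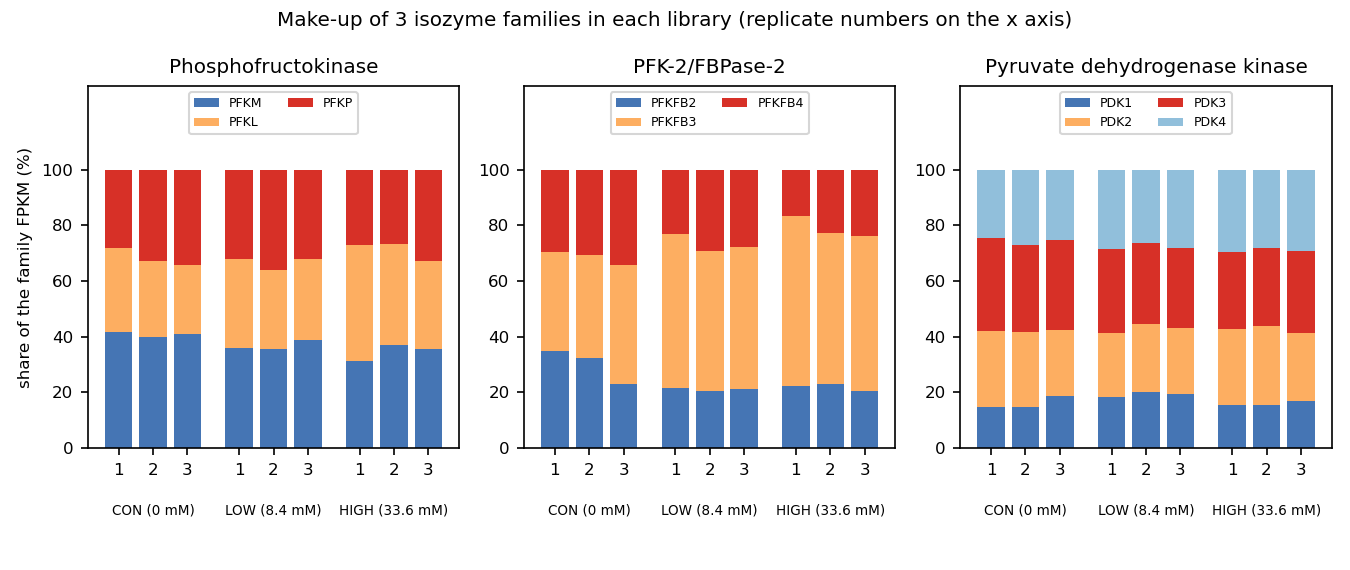
Share (%) of each isozyme in the summed FPKM of its family, 1 stacked bar per library, for phosphofructokinase, the PFKFB enzymes and the PDK kinases. PFKFB3 fills 35.3 to 42.5% of its bar in CON and 50.4 to 61.3% with glucose, and PFKL fills 31.6 to 41.6% in HIGH and 24.7 to 31.8% in the other libraries.

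The spread between libraries of 1 group was not even across the genes. The median SD within groups was 0.18 on the log2 scale for the 31 genes, beside 0.23 for the 9225 genes with a symbol and such a mean level. ENO1, PDK4 and PDK3 had the lowest SD (0.05, 0.06 and 0.06) and HK2, FBP1 and HK1 the highest. Over all those genes, genes with a span of 67.9 kb or more lay above the group mean in CON 1 (median 0.19) and below it in CON 3 (-0.20), and genes of 10.8 kb or less did the reverse (-0.23 and 0.28). HIGH 1 and HIGH 3 differed in the same sense with smaller values (0.07 and -0.09 for long spans, -0.14 and 0.16 for short), and the LOW libraries lay between -0.06 and 0.06.

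Among the enzyme genes, HK1, HK2, PFKM, PFKL, PGD and PFKFB2 were highest in CON 1 and HIGH 1 of their groups and lowest in CON 3 and HIGH 3, and PKM, PGK1, GAPDH, BPGM, ALDOC and GPD2 had the reverse order. PFKL and PGD span 22916 and 14392 bases and GPD2 145037 bases, so within this set the order did not follow span alone. The part of these library differences in the group comparisons was not tested directly. Leaving out HIGH replicate 1 brought the number of genes at an unadjusted p under 0.05 in HIGH versus LOW from 9 to 2, PFKL and PFKFB3, and leaving out HIGH replicate 3 brought it to 11. The share of all genes at that level moved likewise, from 7.67% to 3.8% and 16%. In HIGH versus CON the enzyme genes numbered 6 and 13, against 7 with all libraries, and the shares of all genes were 3.21% and 13.7%, against 6.77%. Without CON replicate 1, 11 of the 31 genes and 26.1% of all genes stood out in HIGH versus CON.

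**Figure D5:**
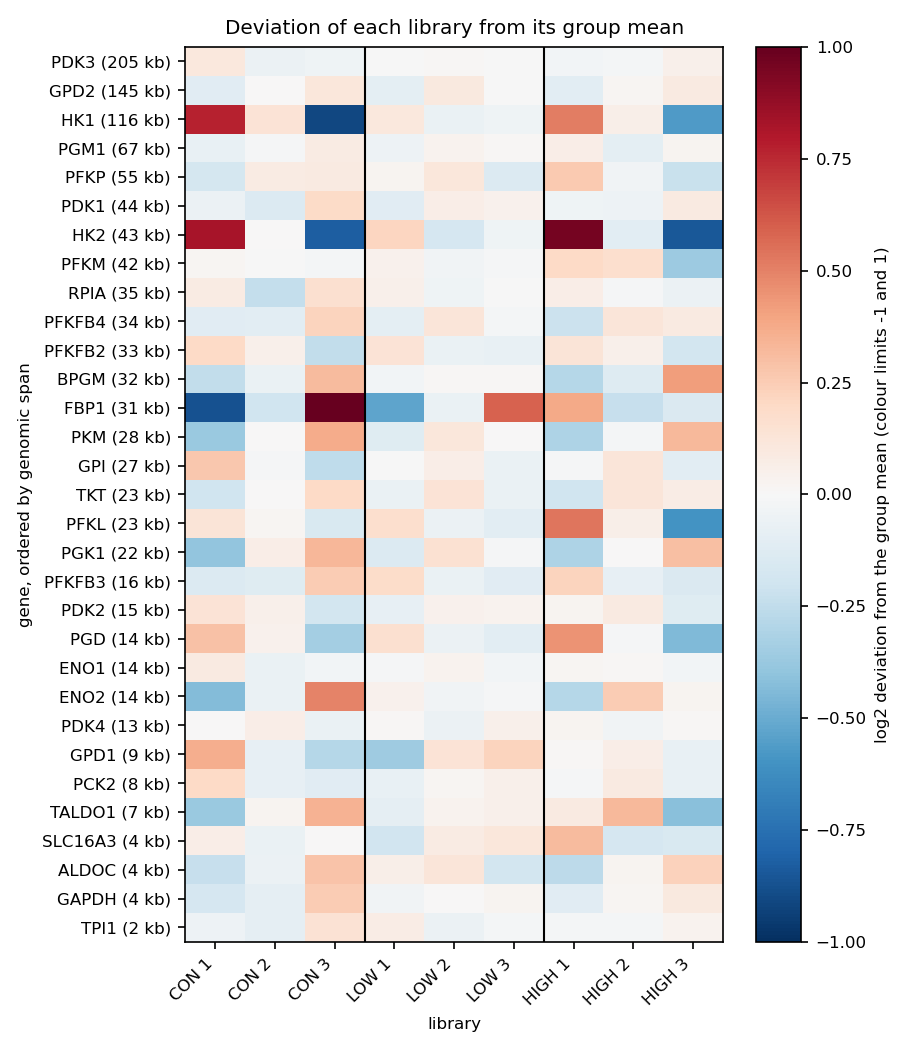
Log2 deviation of each library from its group mean for the 31 genes, ordered by genomic span (kb in brackets), on a colour scale from -1 to 1. HK1 and HK2 are high in CON 1 and HIGH 1, low in CON 3 and HIGH 3, and paler in LOW than in those libraries. Within the LOW columns FBP1 and GPD1 have the strongest colours.

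The 31 genes had 48 transcripts, 21 genes with 1 and 10 with several, and 42 transcripts were tested. At an unadjusted limma p under 0.05 there were 5 in LOW versus CON (2.78% of all transcripts), 8 in HIGH versus CON (6.09%), 8 in HIGH versus LOW (6.62%) and 8 for glucose (3.5%). None passed the limma threshold used for genes, which 0.0234%, 0.0234%, 0.0261% and 0.0339% of all transcripts passed. HK1 was divided between 2 Ensembl transcripts library by library: the first was listed at 0 in HIGH 2 and HIGH 3 and the second in LOW 1 and LOW 3, so a difference of either transcript between groups rests on that assignment. HK1-202 is among the 8 transcripts counted in HIGH versus LOW, and both named TALDO1 transcripts are as well. Some of the genes are neighbours in the deposited coordinates: ENO2 and TPI1 lie 28.2 kb apart on chromosome 3 with 0 named genes between them, TPI1 and GAPDH 289 kb apart with 13, and PGD and ENO1 1369 kb apart on chromosome 12 with 16.

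Other genes of the same pathways were taken from a list of 47, of which 42 were in the table and 32 were tested. None passed the limma threshold. At an unadjusted p under 0.05 there were 0 in LOW versus CON (1.83% of all genes), 4 in HIGH versus CON (6.77%), 2 in HIGH versus LOW (7.67%) and 1 for glucose (2.65%), all of them higher in the group with more glucose.

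H6PD, which yields NADPH inside the endoplasmic reticulum, had 9.63, 8.22 and 7.27 FPKM in CON, 7.71, 7.89 and 6.98 in LOW and 15.3, 12.8 and 9.40 in HIGH. Its log2 fold change was 0.55 in HIGH versus CON (SE 0.19, unadjusted limma p 0.0151) and 0.70 in HIGH versus LOW (0.00431). PDPR, the regulatory subunit of pyruvate dehydrogenase phosphatase, had 8.06, 6.53 and 4.74 FPKM in CON, 6.11, 6.03 and 5.82 in LOW and 12.4, 9.94 and 7.33 in HIGH. Its log2 fold change was 0.61 in HIGH versus CON (SE 0.23, unadjusted limma p 0.0247) and 0.68 in HIGH versus LOW (0.0146), and its 3 HIGH libraries differed in the same order as those of PFKL and PGD. TKTL1, a transketolase-like gene, lay at most at 0.0634 FPKM in CON, with 0.102, 0.172 and 0.187 in LOW and 0.0905, 0.338 and 0.167 in HIGH. All 6 glucose libraries lay above CON, at levels close to the pseudocount of 0.1, with a log2 fold change of 0.94 in HIGH versus CON (SE 0.40, unadjusted limma p 0.0422) and 0.85 for glucose (0.0343).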

How the data were processed

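The authors named HISAT2 for aligning the reads of 9 libraries, StringTie for assembling transcripts and HTSeq 0.6.0 for reads per gene. The sample records also name STAR 2.5.1b, TopHat and TopHat2, and which aligner gave the deposited values was not tested. FPKM per gene and transcript were deposited, with estimated counts beside them. The deposited counts were within 3 percent of FPKM times genomic span (introns included) times 1 factor per library for 100% of transcripts above 1 FPKM, so they are rescaled FPKM and served only for alternatives (edgeR 4.0.16 and DESeq2 1.42.0, rounded). An FPKM of 1 stood for 47.99 to 71.3 fragments per kilobase.

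FPKM were scaled to 1 median over 11689 genes at 1 or more in every library and a pseudocount of 0.1 was added before log2. The limma package (3.58.1, in R 4.3.3) fitted all 3 groups in 1 model with an intensity trend. BH adjustment ran over the 24365 genes that span 300 bases or more and reach 0.1 FPKM in 3 or more libraries. Fold changes of low genes are understated on this scale. Isozyme shares were tested in Python 3.11.15 by exact permutation over all 3 groups at once. The statistic was the sum of squares between groups, which does not say which group differs. In the transcript fit, Ensembl transcripts without a symbol, which carry another factor (5.36 to 9.14), were brought to the scale of the others. The gene fit, its scaling and the shares of all genes were made without this step, and its effect on them was not tested. The scripts were tested on simulated data. Columns without a sample numbered 0.

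The genes and lists were chosen with earlier results of these data known. Full values are given for the most abundant isozyme of each step of the main line, genes at an unadjusted p under 0.05 in any comparison and the 3 largest fold changes of each. The values of 1 gene of the further list are not reported here. Alternatives were other filters, pseudocount, scaling, tools and samples in the fit, the replicate number as a block, and each library left out. Without strand information, overlapping and antisense transcripts cannot be told apart.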

Additional observations from a re-analysis of the deposited data

How the results depend on the processing

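Precision is limited by 3 libraries per group and by values without read counts. Genes called numbered 167 in LOW versus CON, 178 in HIGH versus CON, 343 in HIGH versus LOW and 132 for glucose with DESeq2, and 2 for glucose with edgeR, while FPKM of 1 or more in 3 libraries gave 1 in LOW versus CON and 1 in HIGH versus LOW, and a fit of only the 2 groups compared gave 1 in HIGH versus CON and 6 in HIGH versus LOW. That fit has no value for glucose. With FPKM as deposited, 3 of the enzyme genes had an unadjusted p under 0.05 in LOW versus CON, against 2.6% of all genes in that fit. TALDO1 in HIGH versus LOW reversed, to -0.18 with DESeq2 and -0.19 with edgeR on the estimated counts. The cause of these changes was not tested. The replicate numbers are treated as not pairing the cultures: same-numbered libraries correlated in their deviations at 0.321 to 0.642 for replicate 1 and 0.11 to 0.64 for replicate 3 but at -0.0165 to -0.00367 for replicate 2, and 6 of 9 libraries correlated best with their own number. With the replicate number as a block, genes called numbered 4 in LOW versus CON and 4 in HIGH versus CON, and 12 enzyme genes had an unadjusted p under 0.05 in HIGH versus CON, against 15.1% of all genes in that fit.

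Leaving out each library in turn gave 1 to 5 genes called in LOW versus CON, 2 to 8 in HIGH versus CON, 1 to 5 in HIGH versus LOW and 1 to 5 for glucose. Enzyme genes at an unadjusted p under 0.05 numbered 2 to 6, 5 to 13, 2 to 11 and 4 to 10. The shares of all genes in these fits were 1.43 to 4.28%, 3.21 to 26.1%, 3.8 to 16% and 1.92 to 15.4%. Transcripts of the enzyme genes numbered 2 to 7, 5 to 15, 1 to 11 and 4 to 10. The shares of all transcripts were 2.43 to 4.34%, 4.03 to 17.4%, 4.17 to 11.9% and 2.98 to 10.4%. Isozyme shares at an unadjusted exact p under 0.05 numbered 4 to 6, and those past BH adjustment 0 to 4. In LOW versus CON the number of enzyme genes was 2 without LOW replicate 3 (1.43% of all genes) and 3 without LOW replicate 2 (1.78%). In HIGH versus CON it was 11 without CON replicate 1 (26.1% of all genes) and 13 without HIGH replicate 3 (13.7%). In HIGH versus LOW it was 2 without LOW replicate 2 (5.47%), HIGH replicate 1 (3.8%) or HIGH replicate 2 (4.94%). Without LOW replicate 3 it was 3 (4.17%). For glucose it was 4 without CON replicate 2 (1.92% of all genes). RPIA kept an unadjusted p under 0.05 in 14 of 18 settings in LOW versus CON and 11 in HIGH versus CON, and HK1 in HIGH versus LOW in 7. In HIGH versus LOW PFKM, PFKFB2, PGD, TALDO1 and HK2 kept it in 14, 14, 13, 12 and 11, as did PFKP in HIGH versus CON in 10 and SLC16A3 in LOW versus CON in 14.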
